A study of Homo sapiens with 24 samples.

Results

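The question addressed here was where the transcriptional response to arsenic trioxide (ATO) differed between 2 human leukaemia cell lines. NB4 is an acute promyelocytic leukaemia (APL) line that carries the PML-RARA fusion, and HL-60 is an acute myeloid leukaemia line of another subtype, without that fusion. The 12 libraries compared, of 24 in the series, were NB4 cells given 0.8 µM ATO for 48 h, untreated NB4 cells, HL-60 cells given the same dose of ATO for 48 h and untreated HL-60 cells, with 3 libraries in each group. The labels give the genotype of every library as wild type, all cells grew in RPMI-1640 with 10% fetal bovine serum, and the culture time of the untreated cells is not given. Each line is 1 line of its kind, and its libraries carry batch numbers 1 to 3 without being described as separate cultures. The p-values therefore reflect a spread between libraries that may be technical, and it was estimated over all 24 libraries of the series in 1 fit. The measure throughout is the line difference, the log2 fold change of ATO against untreated cells in NB4 minus the same change in HL-60. It was tested in all 17930 genes that passed a filter on low counts, of 60655 in the table, with edgeR's quasi-likelihood test and Benjamini-Hochberg adjustment, and a gene was called at an adjusted p below 0.05.

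Arsenic binds the PML part of PML-RARA and sends the fusion protein to SUMO-dependent degradation, which lifts a block on granulocyte genes in APL cells. In any cell it also binds protein thiols. The freed transcription factor NRF2 then induces genes of glutathione synthesis, NADPH supply, iron storage and haem breakdown, zinc released from thiols switches on metallothioneins through MTF1, and amino acid or protein-folding stress acts through ATF4 and the unfolded protein response.

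Library totals of the 12 libraries lay between 40647207 and 53023035 counts, and the common biological coefficient of variation of the fit was 7.98%. Genes of the mitochondrial genome took 2.93 to 3.81% of counts in NB4 with ATO, against 4.39 to 5.52% in untreated NB4, and 4.46 to 4.82% in HL-60 with ATO, against 5.79 to 6.34% in untreated HL-60. All 8 promyelocyte markers were tested, and their summed level was 7850 to 7906 CPM (counts scaled to the TMM-normalised library size) in NB4 with ATO and 9261 to 9946 CPM in untreated NB4, against 2147 to 2297 CPM in HL-60 with ATO and 3838 to 4309 CPM in untreated HL-60. Markers of other blood lineages differed in level. Of 12 erythroid markers 9 had no read in the 12 libraries, the globin genes HBA1, HBA2, HBB, HBG1 and HBG2 among them. The 3 tested of 9 megakaryocyte markers summed to 8.83 to 12.9 CPM in NB4 with ATO, 1.36 to 2.15 CPM in untreated NB4, 1.32 to 2.15 CPM in HL-60 with ATO and 0.191 to 0.582 CPM in untreated HL-60. The 5 tested of 8 B cell markers summed to 10.5 to 13.1, 4.6 to 4.76, 2.94 to 3.28 and 1.65 to 2.18 CPM in the same 4 groups, and the 7 tested of 13 T and NK cell markers, mostly CD4, NKG7 and TRAC, to 257 to 275, 214 to 230, 248 to 261 and 212 to 236 CPM. The part of these levels in the results was not tested.

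The HL-60 libraries had a feature that bears on low HL-60 values. Of 6899 genes at 20 CPM or more in NB4 with ATO, none was below 5.14% of its NB4 level in HL-60 with ATO, and of 6830 such genes in untreated NB4 none was below 8% in untreated HL-60. In the other direction, of 7189 genes at 20 CPM or more in HL-60 with ATO, 128 were below 1% of their HL-60 level in NB4 with ATO, and of 7093 in untreated HL-60, 115 were below 1% in untreated NB4. In each of the 6 HL-60 libraries no such gene was below 1%. Where a gene named here stood at a low share of its NB4 level in HL-60, that share is given, and the part of this lower limit in its value was not tested. With the limiting share subtracted from the HL-60 counts, an alternative chosen after the data were seen, 2634 genes were called in place of 2357, and without genes under 25% of their NB4 level in HL-60 2223 were called.

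**Figure D1:**
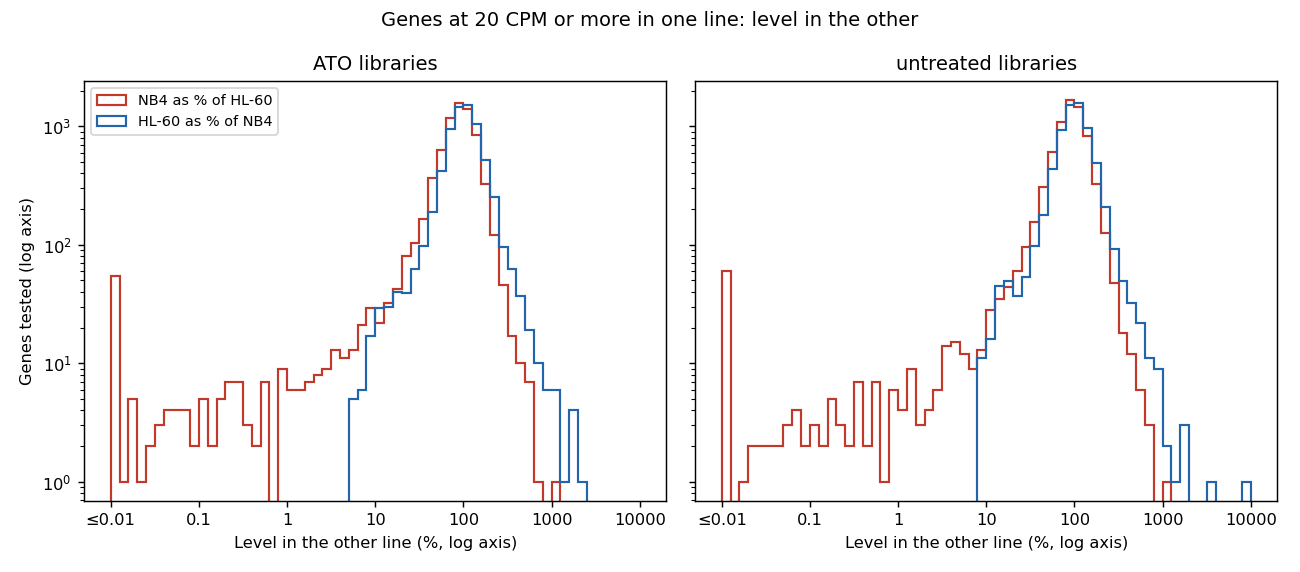
Histograms of genes at 20 CPM or more in one line, by their level in the other line as a percentage (log axis), with the number of genes on a log axis, for ATO libraries (left) and untreated libraries (right). NB4 levels of HL-60 genes (red) reach 0, whereas HL-60 levels of NB4 genes (blue) end at 5.14% with ATO and at 8% untreated.

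The ATO response was wider in NB4 than in HL-60 by count of genes. In NB4 6831 genes passed (38.1% of genes tested), of which 3654 were higher with ATO (20.4%) and 3177 lower (17.7%). In HL-60 4024 passed (22.4%), of which 2187 were higher (12.2%) and 1837 lower (10.2%). The line difference itself was called for 2357 genes (13.1%), of which 1273 were higher in NB4 (7.1% of genes tested) and 1084 lower (6.05%), and for 567 of them it reached 2-fold, 384 higher and 183 lower (67.7% higher). The shares of 13.1% called, 7.1% higher and 6.05% lower are the background for all counts of list members given below. The sign was the same in each of the 3 batches for 2326 of the 2357 called genes. The batches are the same libraries that gave the calls, so this agreement is largely set by the calling and is no replication. The median line difference over all genes tested was 0.02 with TMM scaling, which centres the values. With library sizes alone as scaling 70.5% of the called differences were higher in NB4, against 54% with TMM.

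The lines shared much of the response. Of genes called in NB4, 40.8% were also called in HL-60, and of genes called in HL-60, 69.3% were also called in NB4, 2788 genes in all. These went the same way for 2618 genes and opposite ways for 170. Among the 2618, the line difference was called for 556, and in 497 of those the change was the larger in NB4. Across all 17930 genes the NB4 and HL-60 responses had a Pearson r of 0.31 and a Spearman rho of 0.42, and across the 8681 genes with a mean of at least 10 CPM 0.55 and 0.63, given as a description across genes, which are not independent replicates. Most called differences were changes called in NB4 but not in HL-60: 704 genes that rose and 601 that fell there. A further 166 rose and 104 fell in HL-60 without being called in NB4.

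**Figure D2:**
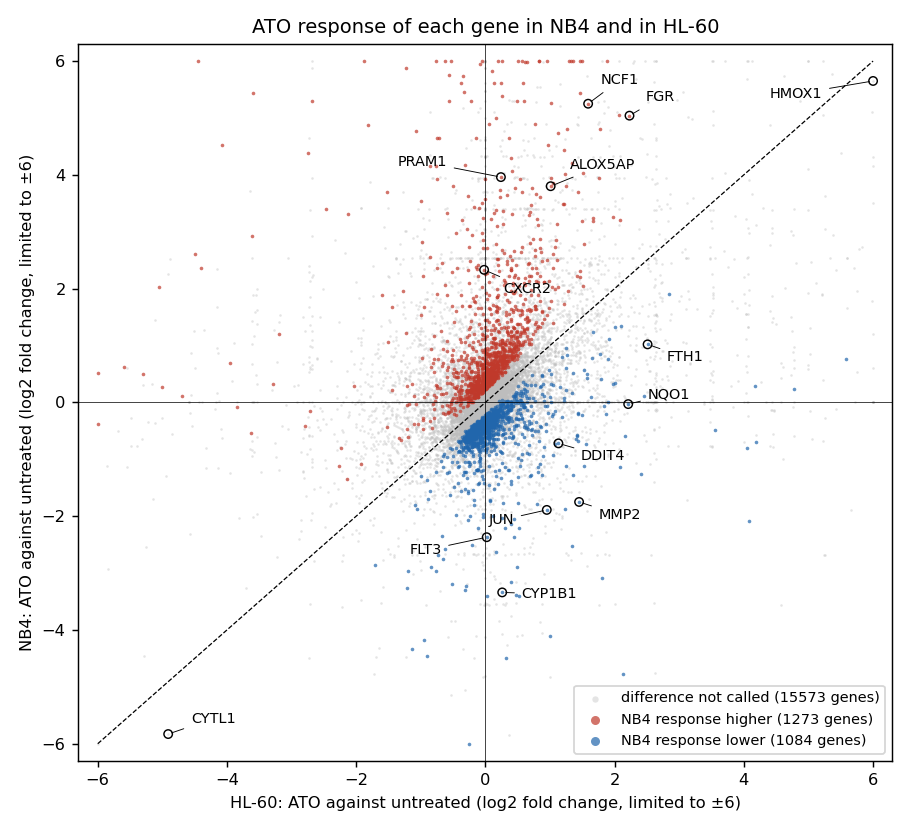
Log2 fold change of ATO against untreated cells for each of 17930 genes, NB4 on the vertical axis and HL-60 on the horizontal axis, with the line of equal response dashed and values beyond 6 drawn at the border. Genes called higher in NB4 (red, 1273) and lower (blue, 1084) lie off the diagonal, PRAM1 and CXCR2 above it with little change in HL-60, NQO1 and FTH1 to its right, while HMOX1 and CYTL1 lie near it.

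Genes of the phagocyte NADPH oxidase, its adaptors and its signalling kinases rose further in NB4. Of the 10 oxidase genes, 8 had a line difference called higher and 1 called lower, with a median of 0.56 (all genes tested, 0.02). PRAM1 encodes an adaptor of neutrophils that is known as a target of PML-RARA repression (chromosome 19, GRCh38 chr19:8490056-8503112, minus strand). It stood at 201, 217 and 189 CPM in NB4 with ATO, against 13.1, 12.5 and 13.4 CPM in untreated NB4. In HL-60 it stood at 120, 114 and 111 CPM with ATO, against 103, 95.9 and 91.8 CPM untreated. NB4 with ATO was above all HL-60 libraries and untreated NB4 below all of them, a line difference of 3.72 ± 0.0947 (SE, edgeR adjusted p = 4.27e-24) that was 3.55 to 3.87 in the 3 batches.

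NCF1 encodes p47phox, the oxidase's cytosolic organiser (chr7:74773962-74789315, plus strand). It stood at 46.2, 51.8 and 49.1 CPM in NB4 with ATO, against 1.19, 1.78 and 0.923 CPM in untreated NB4, and at 56.9, 58.6 and 59.2 CPM in HL-60 with ATO, against 20.6, 20.3 and 16.9 CPM in untreated HL-60. The NB4 level with ATO came close to that of HL-60, while untreated NB4 was far below untreated HL-60, and the line difference was 3.66 ± 0.224 (edgeR adjusted p = 1.59e-10). NCF1 has near-identical pseudogene copies on chromosome 7 that can share its reads, so its level is uncertain. The catalytic subunit gene CYBB (0.51 ± 0.0814), its partner CYBA (0.49 ± 0.112) and the p40phox gene NCF4 (0.54 ± 0.104) rose in both lines and more in NB4. The haematopoietic GTPase gene RAC2 (1.16 ± 0.0923) and its exchange factor gene VAV1 (0.59 ± 0.0799) rose in NB4 and were not called in HL-60. The broadly expressed RAC1 was the member called lower (-0.26 ± 0.0658), and RAP1A was not called.

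Of the 20 myeloid Src-family kinases and adaptors, 15 had a called higher line difference and none a lower one, with a median of 0.57. The Src-family kinase gene FGR stood at 13.9, 16.3 and 14.6 CPM in NB4 with ATO, against 0.436, 0.561 and 0.369 CPM in untreated NB4, and at 29.9, 28.1 and 30.3 CPM in HL-60 with ATO, against 7.19, 6.23 and 5.36 CPM in untreated HL-60. It rose in both lines, from a lower base in NB4, with a line difference of 2.81 ± 0.23 (edgeR adjusted p = 4.97e-10). The adaptor genes FYB1 (1.50 ± 0.112), DAPP1 (1.67) and SKAP2 (0.87), the ITAM-bearing adaptor gene TYROBP (1.21), the phosphoinositide kinase genes PIK3CG (0.90 ± 0.0737) and PIK3R5 (1.61) and the kinase gene SYK (0.54) behaved alike in direction. LYN was not called (-0.03 ± 0.085).

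Surface receptors of mature myeloid cells followed the same direction more loosely, with 14 of 38 tested members called higher, 2 called lower and a median of 0.42. The interleukin-8 receptor gene CXCR2 stood at 13.7, 12.4 and 13.4 CPM in NB4 with ATO, against 2.02, 2.99 and 2.83 CPM in untreated NB4. In HL-60 it did not pass, at 32.1, 31 and 29.8 CPM with ATO and 31.7, 32.9 and 29.6 CPM untreated. The line difference was 2.35 ± 0.141 (edgeR adjusted p = 5.62e-14). The integrin genes ITGAM (1.03 ± 0.138, CD11b) and ITGAX (0.85), the selectin ligand gene SELPLG (1.15 ± 0.139), the cytokine receptor genes CSF2RB (0.97 ± 0.115) and CSF3R (0.75) were also higher. TREM1, an amplifier of neutrophil activation, went the other way: it stood at 2.28, 2.56 and 2.7 CPM in NB4 with ATO and 2.16, 2.57 and 2.79 CPM in untreated NB4, but at 27.4, 27.2 and 29.7 CPM in HL-60 with ATO, against 7.54, 7.76 and 7.28 CPM in untreated HL-60 (-1.90 ± 0.211).

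Further genes had the largest called differences among genes with at least 5 CPM in each line. ALOX5AP and CD52 were also in the panel of the naming rule, and the others below were named after their values were seen. The leukotriene gene ALOX5AP, which presents arachidonate to 5-lipoxygenase, stood at 16.3, 19.6 and 16 CPM in NB4 with ATO, against 1.38, 1.22 and 1.15 CPM in untreated NB4, and at 139, 153 and 146 CPM in HL-60 with ATO, against 70.8, 78.2 and 69.3 CPM in untreated HL-60. All HL-60 libraries lay above all NB4 libraries, while the fold change was larger in NB4, a line difference of 2.79 ± 0.163. CD52, a glycoprotein of leukocytes, stood at 14.9, 15.5 and 13.4 CPM in NB4 with ATO, against 0.827, 1.07 and 1.23 CPM in untreated NB4, and at 36.7, 39.6 and 39.8 CPM in HL-60 with ATO, against 16.3, 17.2 and 15.2 CPM in untreated HL-60 (2.55 ± 0.19). TMC8 (3.22 ± 0.149), SEL1L3 (2.52), CYTH4 (2.30), the galectin gene LGALS9 (2.25), the checkpoint receptor gene VSIR (2.15), the hypoxia-responsive gene NDRG1 (2.14), PLB1 (2.10), the DNA sensor gene IFI16 (2.09) and SH2D3C (1.93) rose in NB4. Of these 9, CYTH4, VSIR and PLB1 also rose in HL-60 and the other 6 were not called there. The sialic acid receptor gene SIGLEC6 rose in NB4, to 4.29, 6.82 and 4.86 CPM with ATO, against 1.08, 0.935 and 0.902 CPM untreated, and fell in HL-60, to 110, 108 and 103 CPM with ATO, against 170, 170 and 170 CPM untreated (3.12 ± 0.208).

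**Figure D3:**
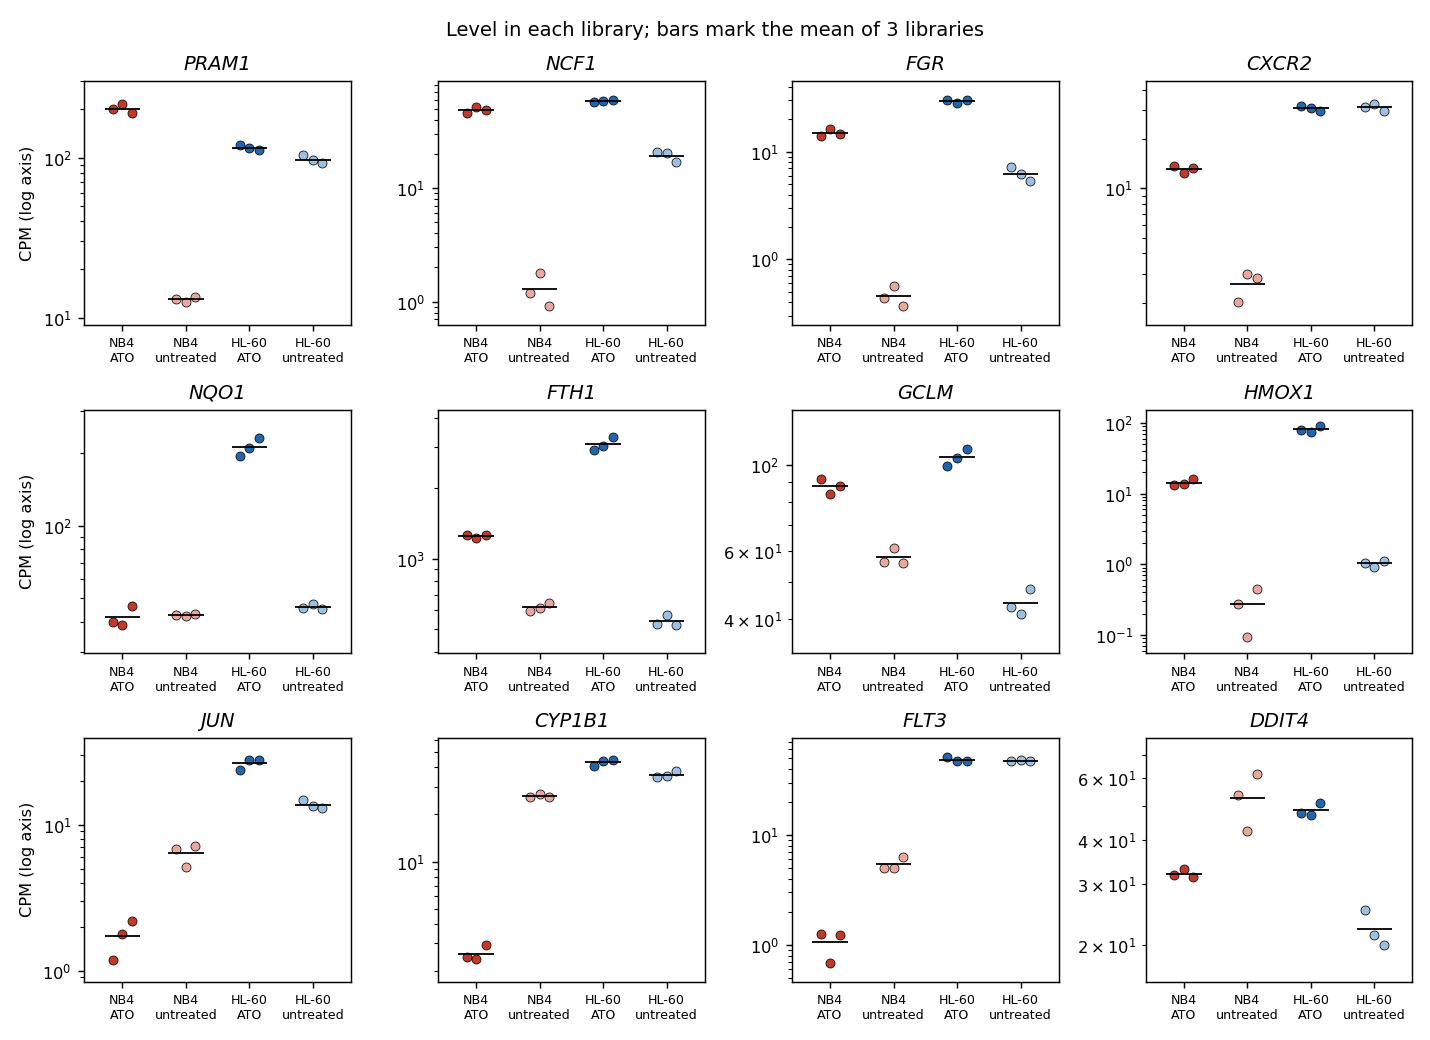
CPM (log axis) of 12 genes in each library of NB4 with ATO, untreated NB4, HL-60 with ATO and untreated HL-60, each point 1 library and each bar the mean of 3. PRAM1, NCF1, FGR and CXCR2 have the higher fold change in NB4, FTH1 and GCLM rose in both lines and more in HL-60, NQO1 rose in HL-60 alone of the 2 lines by the test, CYP1B1 and FLT3 fell in NB4, JUN and DDIT4 fell in NB4 and rose in HL-60, and HMOX1 rose in both.

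Granule protein and transcription factor genes were split. Of 18 tested specific and gelatinase granule genes, 2 were called higher and 4 lower (median 0.11), or 2 and 3 with library sizes alone. Of 10 S100 protein genes, 2 were called higher and 1 lower (median 0.27). Of 16 tested azurophil granule genes, 5 were called higher and 2 lower (median 0.15). Proteinase 3, PRTN3, stood at 446, 450 and 476 CPM in NB4 with ATO, against 341, 385 and 394 CPM in untreated NB4, and at 534, 521 and 498 CPM in HL-60 with ATO, against 1177, 1307 and 1127 CPM in untreated HL-60. Its line difference of 1.51 ± 0.16 thus came mainly from a fall in HL-60. Myeloperoxidase, MPO, fell in both lines and less in NB4 (7109, 7053 and 7035 CPM in NB4 with ATO, against 8614, 8522 and 9168 CPM in untreated NB4), with a line difference of 0.64 ± 0.116. Its HL-60 level was 17.1% of the NB4 level with ATO and 26.7% untreated. The bactericidal protein gene BPI (3.32 ± 0.448), the defensin gene DEFA4 (1.29 ± 0.289) and lysozyme, LYZ (0.59 ± 0.113), were higher, cathepsin G, CTSG (-0.71 ± 0.172), and RNASE2 (-0.45 ± 0.0951) lower. DEFA4 in HL-60 was at 10.7% of its NB4 level with ATO.

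Of 26 myeloid transcription factor genes, 4 were called higher and 7 lower (median -0.15). SPI1, which encodes PU.1, stood at 148, 160 and 149 CPM in NB4 with ATO, against 85.4, 87.2 and 94.6 CPM in untreated NB4, and at 169, 159 and 159 CPM in HL-60 with ATO, against 166, 168 and 150 CPM in untreated HL-60. ATO brought SPI1 in NB4 to the HL-60 level, a line difference of 0.77 ± 0.0957. The granulocyte factor gene CEBPE rose in both lines (0.44 ± 0.109), with HL-60 at 14.4% of the NB4 level with ATO, and CEBPB was also higher (0.68 ± 0.172). IRF8 rose in NB4 and fell in HL-60 (1.52 ± 0.193), though it remained at 2.26, 1.76 and 2.2 CPM in NB4 with ATO, against 87.9, 81 and 85.3 CPM in HL-60 with ATO. The repressor gene GFI1 (-0.60 ± 0.081) and RUNX1 (-0.40 ± 0.0676) fell in NB4 and were not called in HL-60. The Krüppel-like factor gene KLF6 fell in NB4 and rose in HL-60 (-1.55 ± 0.163), and KLF4 fell in both, further in NB4 (-2.10 ± 0.386).

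Several genes with sizeable levels in both lines fell in NB4 and rose or were not called in HL-60. CYP1B1, a cytochrome P450 of the aryl hydrocarbon receptor pathway (chr2:38066973-38109902, minus strand), stood at 2.44, 2.37 and 2.93 CPM in NB4 with ATO, against 25.7, 26.9 and 25.7 CPM in untreated NB4. In HL-60 it stood at 41.1, 43.7 and 44.4 CPM with ATO, against 34.5, 35.5 and 37.8 CPM untreated. A 10.1-fold fall in NB4 stood against a 1.2-fold rise in HL-60, for a line difference of -3.60 ± 0.152 (edgeR adjusted p = 9.81e-18). The receptor tyrosine kinase gene FLT3 stood at 1.26, 0.688 and 1.22 CPM in NB4 with ATO, against 5.01, 5.02 and 6.32 CPM in untreated NB4, while in HL-60 it stood at 51.3, 46.7 and 46.7 CPM with ATO and 47.3, 48 and 46.9 CPM untreated (-2.40 ± 0.202).

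The AP-1 gene JUN moved in opposite directions. It stood at 1.18, 1.78 and 2.2 CPM in NB4 with ATO, against 6.85, 5.09 and 7.14 CPM in untreated NB4, and at 23.7, 27.9 and 27.7 CPM in HL-60 with ATO, against 14.8, 13.5 and 12.9 CPM in untreated HL-60, a line difference of -2.84 ± 0.344 (edgeR adjusted p = 9.12e-06). The gelatinase gene MMP2 did the same, with 1.93, 2.66 and 3.3 CPM in NB4 with ATO, against 8.96, 9.11 and 8.37 CPM in untreated NB4, and 88.2, 93.9 and 98.3 CPM in HL-60 with ATO, against 31, 35.8 and 35.5 CPM in untreated HL-60 (-3.20 ± 0.181). The groups of each line did not overlap for either gene. MTUS1 (-2.73 ± 0.183), the glucocorticoid-induced gene TSC22D3 (-1.83) and the sodium pump subunit gene ATP1B1 (-1.94) also fell in NB4 and rose in HL-60. The prostaglandin receptor gene PTGER4 (-2.03), ASIC1 (-1.93), SYNE3 (-1.82) and RGS16 (-1.77) fell in NB4 and were not called in HL-60. The phosphatase gene PTPN3 fell in both lines and more in NB4 (-2.22 ± 0.16).

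Most of the NRF2 targets tested rose in both lines, and several of the main ones rose more in HL-60. NRF2 activity itself was not measured. Of 29 tested NRF2 targets, 20 rose and 3 fell in NB4, with a median of 0.61, and 24 rose and none fell in HL-60, with a median of 0.72. The line difference was called higher for 4 and lower for 11 (median -0.18). With library sizes alone these counts were 5 and 9, with DESeq2's size factors 2 and 12, and with the replicate number as a block shared by the lines 2 and 11. NQO1, a quinone reductase and standard reporter of NRF2 activity (chr16:69706996-69726951, minus strand), stood at 39.8, 38.8 and 46.4 CPM in NB4 with ATO and 42.6, 42.4 and 43 CPM in untreated NB4. In HL-60 it stood at 196, 211 and 232 CPM with ATO, against 45.5, 47.3 and 45.2 CPM untreated. From nearly equal starting levels it rose 4.63-fold in HL-60 and did not pass in NB4, a line difference of -2.25 ± 0.0967 (edgeR adjusted p = 1.29e-17).

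Ferritin heavy chain, FTH1, which oxidises and stores iron, stood at 1267, 1224 and 1267 CPM in NB4 with ATO, against 598, 617 and 644 CPM in untreated NB4, and at 2907, 3039 and 3307 CPM in HL-60 with ATO, against 527, 576 and 518 CPM in untreated HL-60. The lines started alike and both rose, HL-60 by 5.71-fold and NB4 by 2.02-fold, a line difference of -1.50 ± 0.095. FTH1 has many processed pseudogenes that can share its reads. The light chain gene FTL narrowly missed (-0.27 ± 0.0946, edgeR adjusted p = 0.0584, DESeq2 adjusted p = 0.0373). GCLM, the modifier subunit of the enzyme that limits glutathione synthesis, stood at 92, 84 and 88.2 CPM in NB4 with ATO, against 56.3, 60.9 and 55.8 CPM in untreated NB4, and at 99.1, 104 and 110 CPM in HL-60 with ATO, against 42.9, 41.2 and 47.8 CPM in untreated HL-60 (-0.64 ± 0.0988). The NADPH-forming malic enzyme gene ME1 (-0.93 ± 0.107) and the autophagy receptor gene SQSTM1 (-0.43 ± 0.11) rose in both lines and more in HL-60. The epoxide hydrolase gene EPHX1 (-1.30 ± 0.152) and the cystine carrier gene SLC7A11 (-0.88 ± 0.154) fell in NB4 and rose in HL-60. TXNIP (-0.60 ± 0.0921), which encodes an inhibitor of thioredoxin and not an antioxidant enzyme, moved the same way. The thioredoxin reductase gene TXNRD1 rose in HL-60 and was not called in NB4 (-0.33 ± 0.0635).

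Not every NRF2 target followed. The haem transporter gene SLC48A1 stood at 91.4, 90.4 and 90.1 CPM in NB4 with ATO, against 20.6, 21.4 and 23.8 CPM in untreated NB4, and at 71.8, 68 and 75.3 CPM in HL-60 with ATO, against 23.5, 26.5 and 25.3 CPM in untreated HL-60, a line difference of 0.53 ± 0.105 toward NB4. Transketolase, TKT, was also higher (0.42 ± 0.0848). MAFG (0.25 ± 0.0822) and the glutathione conjugate pump gene ABCC1 (0.27 ± 0.0898, edgeR adjusted p = 0.0413) passed narrowly. ABCC1 was not called with the replicate number as a block (adjusted p = 0.0525 within each line and 0.0565 shared), nor without any of 9 of the 12 libraries (0.0574 to 0.177). MAFG was not called with the shared block (0.0526) nor without any of 9 libraries (0.0635 to 0.148). Haem oxygenase 1, HMOX1, rose in both lines by the largest factors among the NRF2 targets. It stood at 13.4, 13.5 and 15.9 CPM in NB4 with ATO, against 0.276, 0.0935 and 0.451 CPM in untreated NB4, and at 79.1, 75 and 91.5 CPM in HL-60 with ATO, against 1.06, 0.925 and 1.1 CPM in untreated HL-60. The line difference of -0.67 ± 0.424 did not pass (edgeR adjusted p = 0.357). An approximate 95% interval derived from that SE, on 16 residual degrees of freedom, was -1.57 to 0.23. Of 30 tested genes of glutathione and thioredoxin enzymes 4 were called higher and 9 lower, or 5 and 3 with library sizes alone.

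The promoters of 2 induced targets with a line difference are shown with the antioxidant response core in capitals, because this is the sequence through which NRF2 acts. RefSeq promoter windows of 250 bases before the annotated start (GRCh38.p14) were searched on both strands for TGACNNNGC. The core was in 10.9% of 35093 promoters and in 8 of the 23 NRF2 targets that had a window (ABCC4, EPHX1, GCLM, GPX2, KEAP1, ME1, PGD and TXNRD1). The windows of GCLM (chr1:93909431-93909680, minus strand) and ME1 (chr6:83431052-83431301, minus strand) read as follows, 5′ to 3′ along the gene.
GCLM: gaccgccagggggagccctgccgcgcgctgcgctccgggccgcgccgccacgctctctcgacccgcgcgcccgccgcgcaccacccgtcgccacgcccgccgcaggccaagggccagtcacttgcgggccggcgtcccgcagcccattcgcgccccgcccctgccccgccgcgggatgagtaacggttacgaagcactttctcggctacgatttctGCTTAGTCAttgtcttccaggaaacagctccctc
ME1: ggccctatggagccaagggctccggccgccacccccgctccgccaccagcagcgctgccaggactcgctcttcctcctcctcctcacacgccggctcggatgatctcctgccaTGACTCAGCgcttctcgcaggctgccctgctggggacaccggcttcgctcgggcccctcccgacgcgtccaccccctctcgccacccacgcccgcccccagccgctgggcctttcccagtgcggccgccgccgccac
Both windows held 1 match, on the reverse strand in GCLM and on the gene's strand in ME1. A match is a description of the letters, and the NQO1 window held none.

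Metallothioneins, small cysteine-rich proteins that bind arsenic and zinc, were induced in both lines without a common direction of the line difference. Of 9 genes, 5 were tested, and 3 rose in NB4 and 5 in HL-60. MT2A stood at 283, 276 and 286 CPM in NB4 with ATO, against 108, 109 and 118 CPM in untreated NB4, and at 83.4, 88.6 and 88.6 CPM in HL-60 with ATO, against 22.2, 24.6 and 17.6 CPM in untreated HL-60. NB4 was the higher in level and HL-60 in fold, a line difference of -0.68 ± 0.177 (edgeR adjusted p = 0.0117), or -1.15 with the limiting share of NB4 counts subtracted. The HL-60 level was 30.9% of the NB4 level with ATO and 19.2% untreated. MT1X went the other way, with 9.59, 9.1 and 9.3 CPM in NB4 with ATO, against 2.04, 2.55 and 2.32 CPM in untreated NB4, and 5.56, 5.73 and 5.78 CPM in HL-60 with ATO, against 2.58, 3.46 and 2.3 CPM in untreated HL-60 (0.99 ± 0.226). MT1F was not called (-0.30 ± 0.278). MT1E and MT1G had no read in NB4 under either condition, and MT1E stood at 13.1, 16.3 and 15.2 CPM in HL-60 with ATO, against 7.39, 7.7 and 6.46 CPM in untreated HL-60. These genes are near-copies of each other, so reads may be split between them.

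The promoters of the 2 metallothionein genes called in opposite directions are printed with the core of the metal response element, the site of MTF1, in capitals (TGCGCNC or TGCACNC, either strand, RefSeq, GRCh38.p14). A core was in 24.8% of the 35093 promoters. MT2A (chr16:56608334-56608583, plus strand) held 7 cores, and 0.0313% of promoters held at least as many. MT1X (chr16:56682220-56682469, plus strand) held 4, and 0.368% of promoters held at least as many.
MT2A: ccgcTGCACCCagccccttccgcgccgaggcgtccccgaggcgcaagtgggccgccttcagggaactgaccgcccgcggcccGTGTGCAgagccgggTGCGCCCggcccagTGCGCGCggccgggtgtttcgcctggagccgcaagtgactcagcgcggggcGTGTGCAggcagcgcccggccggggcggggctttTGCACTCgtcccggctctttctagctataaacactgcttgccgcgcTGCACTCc
MT1X: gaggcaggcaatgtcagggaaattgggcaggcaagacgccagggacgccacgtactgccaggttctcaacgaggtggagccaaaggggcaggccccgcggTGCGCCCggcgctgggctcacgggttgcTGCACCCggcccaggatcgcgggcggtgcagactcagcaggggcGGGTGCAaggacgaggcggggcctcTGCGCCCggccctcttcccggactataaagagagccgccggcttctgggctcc
Both genes rose in both lines, and the counts of cores are given without a link to the size of either response.

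Among 12 tested genes of arsenic transport and methylation, 2 were called higher (16.7%, beside 13.1% of all genes called in either direction). Among them was ABCC1, whose call the replicate block removed as given above. AQP9, an aquaglyceroporin that carries arsenite, had no read in untreated NB4 and 0.472, 0.382 and 0.54 CPM in NB4 with ATO, at least 6.95-fold higher against a limit of 3 reads per library. That fold would be lower if both mates of a pair were counted. AQP9 stood at 0.177, 0.237 and 0.182 CPM in HL-60 with ATO, against 0.0506, 0.0402 and 0 CPM in untreated HL-60. The line difference did not pass (edgeR adjusted p = 0.103, DESeq2 adjusted p = 0.032).

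Targets of ATF4, the factor of amino acid stress, rose or were not called in HL-60 and went both ways in NB4. Of 25 tested ATF4 targets, 5 rose and 9 fell in NB4, and 14 rose and none fell in HL-60. The line difference was called higher for 1, CEBPB (lost with limma-voom, adjusted p = 0.0795), and lower for 10 (median -0.26). DDIT4, an inhibitor of mTORC1, stood at 31.7, 33.1 and 31.3 CPM in NB4 with ATO, against 53.9, 42.5 and 61.6 CPM in untreated NB4, and at 47.7, 47.1 and 51 CPM in HL-60 with ATO, against 25.3, 21.4 and 20 CPM in untreated HL-60, a fall in NB4 and a rise in HL-60 (-1.85 ± 0.19, edgeR adjusted p = 1.5e-07). The stress factor gene ATF3 (-1.58 ± 0.263) and the amino acid carrier gene SLC3A2 (-0.55 ± 0.0814) did the same. Its partner carrier gene SLC7A5 fell in NB4 (-0.64 ± 0.0995), while the serine synthesis gene PSAT1 (-0.50 ± 0.0803) and the pro-apoptotic factor gene DDIT3 (-0.66 ± 0.121) rose in HL-60. ATF4 mRNA itself was not called in either line (line difference -0.02 ± 0.0741), and neither was the difference of the pseudokinase gene TRIB3, which rose in both (0.23 ± 0.165).

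Of 21 unfolded protein response genes 15 fell in NB4 and 10 in HL-60, and the line difference was called higher for 1 and lower for 8 (median -0.14). The endoplasmic reticulum chaperone gene HSPA5 stood at 775, 755 and 805 CPM in NB4 with ATO, against 1504, 1535 and 1489 CPM in untreated NB4, and at 568, 605 and 618 CPM in HL-60 with ATO, against 874, 917 and 914 CPM in untreated HL-60 (-0.36 ± 0.0692). XBP1 (-0.46 ± 0.0873) fell in both lines and CRELD2 (-0.55 ± 0.132) in NB4. The sensor kinase gene ERN1 was the exception, with a rise in NB4 (0.77 ± 0.151). Of 19 cytosolic heat shock genes none was called higher and 4 lower, or 1 and 0 with library sizes alone.

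Antigen presentation genes of MHC class I moved apart. Of 16 MHC class I pathway genes, 7 rose and 2 fell in NB4, and 1 rose and 9 fell in HL-60, and the line difference was called higher for 9 and lower for 1 (median 0.57). The class I transactivator gene NLRC5 stood at 123, 126 and 115 CPM in NB4 with ATO, against 64.6, 69.5 and 72 CPM in untreated NB4, and at 87.5, 84.1 and 85.3 CPM in HL-60 with ATO, against 86.3, 80.7 and 79.5 CPM in untreated HL-60 (0.76 ± 0.0953). The immunoproteasome gene PSMB9 rose in NB4 and fell in HL-60 (2.04 ± 0.265), and the trimming enzyme gene ERAP2 rose in NB4 (0.74 ± 0.101). For the heavy chain gene HLA-B the difference of 2.54 ± 0.334 lay in HL-60, with 29.5, 27.6 and 23.4 CPM in HL-60 with ATO, against 173, 184 and 168 CPM in untreated HL-60, and under 1 CPM in every NB4 library. HLA genes are polymorphic near-copies, so their counts are uncertain. CALR, a chaperone of class I loading, was the member called lower (-0.28 ± 0.069), and B2M was not called (0.19 ± 0.068, edgeR adjusted p = 0.0675, limma-voom adjusted p = 0.0428).

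Of 8 tested MHC class II genes 5 fell in HL-60 and none rose, and 2 rose in NB4 and none fell. The line difference was called higher for 1 and not called for 7 (12.5% called, beside 13.1% of all genes tested). The invariant chain gene CD74 stood at 0.865, 0.956 and 0.996 CPM in NB4 with ATO, against 0.0459, 0.0935 and 0.041 CPM in untreated NB4, and at 344, 319 and 306 CPM in HL-60 with ATO, against 540, 567 and 521 CPM in untreated HL-60. Its line difference of 4.67 ± 0.313 joined a rise at trace level in NB4 with a fall of an abundant mRNA in HL-60. Of 41 interferon-stimulated genes 19 rose and 4 fell in NB4, and 18 rose and 3 fell in HL-60. The line difference was called higher for 12 and lower for 2, with a median of 0.02. Those higher were DTX3L (0.79 ± 0.0872), its neighbour PARP14 (1.78 ± 0.223), BST2 (0.56), the factor gene IRF1 (0.70 ± 0.121), SAMD9L (1.56) and 7 others.

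PML itself, the arsenic target, stood at 76.8, 76.6 and 76.6 CPM in NB4 with ATO, against 55, 54.7 and 57.8 CPM in untreated NB4, and at 32.9, 35.5 and 33.5 CPM in HL-60 with ATO, against 35.9, 36.8 and 30.3 CPM in untreated HL-60. It rose in NB4 and was not called in HL-60 (0.47 ± 0.104, edgeR adjusted p = 0.00169). Counts by gene do not separate the fusion transcript from the normal one. RARA was not called in either line (-0.03 ± 0.122). Of the 27 genes of PML bodies and SUMO conjugation 14.8% had a called line difference, near the 13.1% of all genes tested. Called higher was 1, PML. Called lower were 3, the SUMO-targeted ubiquitin ligase gene RNF111 (-0.25 ± 0.0737), the SUMO-activating subunit gene UBA2 (-0.22 ± 0.0694) and PIAS2 (-0.31 ± 0.0965), and none with library sizes alone. The calls of these 3 were also lost without single libraries of either line, with adjusted p of 0.0556 to 0.0664 for RNF111 (3 libraries), 0.0524 to 0.0826 for UBA2 (6) and 0.0652 to 0.121 for PIAS2 (7). Of 21 tested retinoid genes 2 were higher, among them the retinol dehydrogenase gene DHRS9 (0.52 ± 0.125, HL-60 at 19.6% of the NB4 level with ATO), and 4 lower, among them DHRS3 (-1.66 ± 0.279).

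Ribosome biogenesis genes and mitochondrially encoded mRNAs fell in both lines. Of 34 ribosome biogenesis genes 30 fell in NB4 and 30 in HL-60. The line difference was called lower for 5 (14.7%, beside 6.05% of all genes called lower and 13.1% in either direction), or 2 with library sizes alone. Nucleophosmin, NPM1 (-0.54 ± 0.0758), and nucleostemin, GNL3 (-0.49 ± 0.101), were the clearest. NPM1 has many pseudogene copies that can share its reads. All 13 mitochondrially encoded mRNAs fell in NB4 and 9 in HL-60, and MT-ND6 alone had a called difference (-0.92 ± 0.268), which was lost without any of 5 single libraries (adjusted p = 0.061 to 0.0853). With the replicate block shared by the lines 2 of the 13 were called lower. MYC stood at 303, 296 and 308 CPM in NB4 with ATO, against 501, 523 and 564 CPM in untreated NB4, and at 496, 489 and 476 CPM in HL-60 with ATO, against 700, 759 and 677 CPM in untreated HL-60. It fell in both lines, and its line difference of -0.26 ± 0.0856 passed narrowly (edgeR adjusted p = 0.0393). That call was lost with the replicate number as a block shared by the lines (adjusted p = 0.0509), with library sizes alone (0.109) and without any of 10 of the 12 libraries (0.0519 to 0.122). Of 23 tested cholesterol synthesis genes 7 were called lower and none higher. The HMG-CoA synthase gene HMGCS1 (-0.90 ± 0.139) and the sterol oxidase gene MSMO1 (-0.69 ± 0.114) fell in NB4 and rose in HL-60. Of 28 glycolysis and hypoxia genes 5 were higher (17.9%, beside 7.1% of all genes called higher and 13.1% in either direction), with the hexokinase gene HK1 (1.19 ± 0.132) and NDRG1. None of 27 proteasome genes was called in the main fit with TMM scaling, and 6 were higher with library sizes alone. The immunoproteasome gene PSMB9, given above, is not on that list.

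DNA repair genes, a subject of the series, had called line differences in 3.85% of the damage checkpoint list to 33.3% of the nucleotide excision list, beside 13.1% of all genes tested. The line difference was called for 5 of 30 homologous recombination genes (1 higher, 4 lower), 2 of 18 end joining genes, 4 of 16 mismatch repair genes (all lower), 2 of 24 base excision genes, 4 of 20 Fanconi anaemia genes, 7 of 21 nucleotide excision genes (5 higher, 2 lower) and 1 of 26 damage checkpoint genes (0 with the replicate block shared by the lines). The resection gene RBBP8 (-0.56) was lower, and the damage-sensor gene DDB2 (0.62) and the helicase gene ERCC2 (0.61) were higher. With library sizes alone the lower calls became 2 for homologous recombination and 1 for mismatch repair. PARP1 fell in both lines (-0.04 ± 0.0647, not called). CHEK1 fell in NB4 and was not called in HL-60, and its difference missed by a little (-0.27 ± 0.093, edgeR adjusted p = 0.0531, and 0.00442 to 0.044 under the 9 alternatives that called it).

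Cell death genes showed a mixed picture. Of 26 death receptor and caspase genes 7 were higher and 2 lower (median 0.19), with the inflammatory caspase gene CASP1 (1.02 ± 0.147). Of 14 tested BCL2 family genes 2 were higher and 3 lower. The anti-apoptotic gene BCL2 stood at 23.5, 21.6 and 23.5 CPM in NB4 with ATO, against 65.9, 77.6 and 69.2 CPM in untreated NB4, and at 100, 99.1 and 110 CPM in HL-60 with ATO, against 146, 148 and 160 CPM in untreated HL-60, a fall in both and the deeper in NB4 (-1.08 ± 0.115). The pro-apoptotic genes BAX (0.57 ± 0.121) and BAD (0.76 ± 0.178) rose more in NB4, and BMF (-0.84 ± 0.152) more in HL-60. Among genes of coagulation, a clinical feature of APL, tissue factor, F3, stood at 5.86, 5.35 and 6.66 CPM in NB4 with ATO, against 24.3, 23.2 and 23.1 CPM in untreated NB4, and at 9.71, 9.54 and 8.88 CPM in HL-60 with ATO, against 12, 12.7 and 13.7 CPM in untreated HL-60 (-1.53 ± 0.184), while annexin V, ANXA5, was higher (0.62 ± 0.0683).

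**Figure D4:**
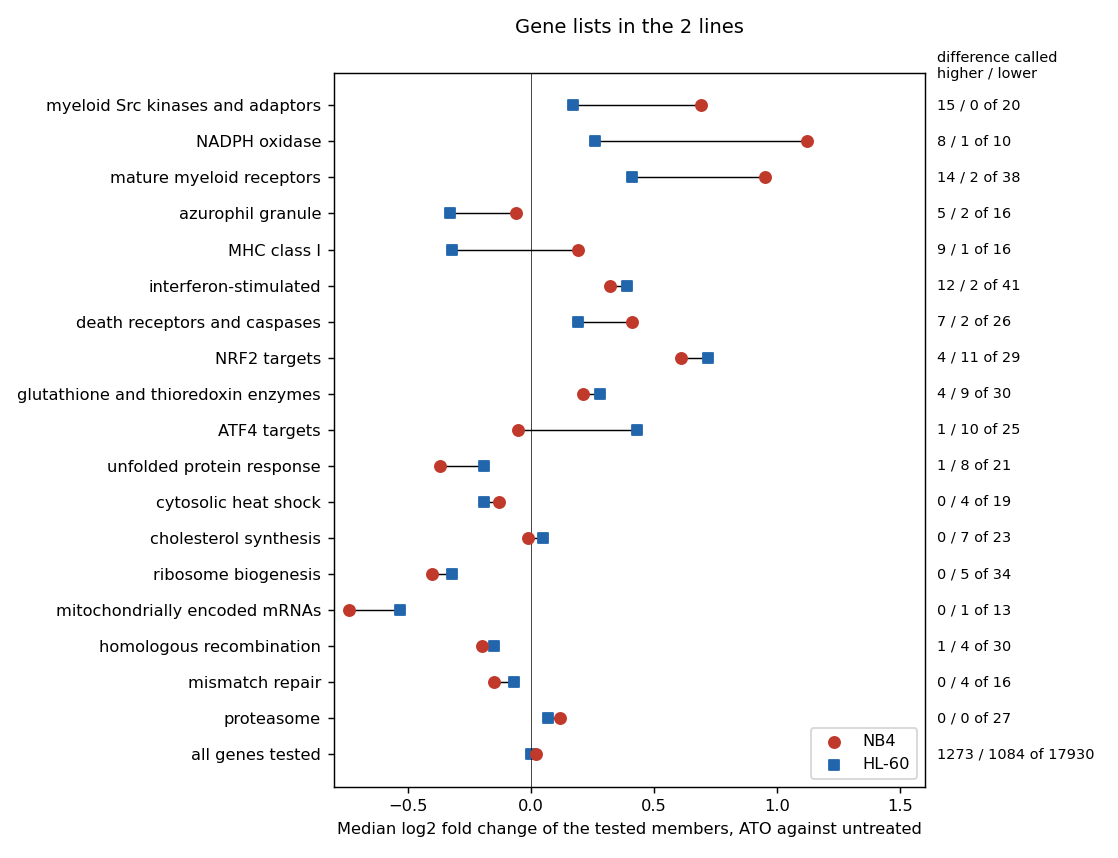
Median log2 fold change of ATO against untreated cells over the tested members of 18 gene lists and all genes tested, NB4 as circles and HL-60 as squares, with the number of members whose line difference was called higher and lower at the right. The NADPH oxidase, Src kinase and receptor lists have the higher median in NB4 and the ATF4 and NRF2 lists in HL-60; with library sizes alone the lower calls fall to 2 of 34 for ribosome biogenesis, 2 of 30 for homologous recombination, 1 of 16 for mismatch repair and none of 19 for heat shock.

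Genes called in opposite directions in the 2 lines numbered 87 up in NB4 and down in HL-60, and 83 the other way round. Of those named by the size of the smaller change, the phospholipase gene PLD4 stood at 3.83, 4.4 and 4.13 CPM in NB4 with ATO, against 1.1, 1.54 and 1.23 CPM in untreated NB4, and at 11, 10.4 and 7.86 CPM in HL-60 with ATO, against 27.7, 26.7 and 25.1 CPM in untreated HL-60 (3.12 ± 0.291). The orphan receptor gene GPR160 was the most abundant of these, with 21.3, 18.8 and 20.9 CPM in NB4 with ATO, against 12.4, 11.7 and 12 CPM in untreated NB4, and 173, 179 and 181 CPM in HL-60 with ATO, against 292, 316 and 315 CPM in untreated HL-60 (1.55 ± 0.0995). In both genes the gap between the lines narrowed with ATO. THBS4 (1.95 ± 0.387) and the trace-level CEP70 (3.42 ± 0.68) did the same. The nuclear receptor gene PPARG, which directs lipid genes in macrophages, stood at 1.02, 0.784 and 1.08 CPM in NB4 with ATO, against 2.32, 2.38 and 2.3 CPM in untreated NB4, and at 42.4, 39 and 44.2 CPM in HL-60 with ATO, against 22.9, 23.6 and 22.4 CPM in untreated HL-60 (-2.15 ± 0.21). LHFPL2 was lower in the same manner (-1.98 ± 0.321).

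The largest fitted differences belonged to genes near 0 in NB4, and their folds are limits in terms of counted reads. If both mates of a pair were counted, as the excess of even counts described below may reflect, 3 reads are fewer than 3 fragments. The limits on the folds would then be lower than those given here. LDLRAD4, IL12RB1, METTL7B, NEFH, DAPK1, SPEF2, ACVRL1 and RNF175 had no read in untreated NB4 and 7 to 52 reads over the 3 NB4 libraries with ATO. Against a limit of 3 reads per library, IL12RB1, the shared receptor chain of interleukins 12 and 23, was at least 5.17-fold higher in NB4 with ATO, with 0.354, 0.268 and 0.415 CPM. The death-associated kinase gene DAPK1 was at least 3.68-fold higher (0.177, 0.229 and 0.332 CPM), LDLRAD4 at least 2.83-fold, ACVRL1 1.99-fold, METTL7B 1.96-fold, NEFH 1.59-fold and SPEF2 1.02-fold, while RNF175 stayed at or under the limit. HL-60 held 2.91 to 46.5 CPM of these genes with ATO and changed by 0.549 to 1.93-fold. The calls of SPEF2 and RNF175 were lost with limma-voom (adjusted p = 0.171 and 0.114), with halved counts (0.0659 and 0.11) and without single NB4 libraries: for SPEF2 without the ATO library of batch 3 (0.242), for RNF175 without the ATO library of batch 2 (0.197) or any untreated one (0.0632 to 0.0667).

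The lower end held similar genes. P4HTM had no read in NB4 with ATO and 0.138, 0.0467 and 0 CPM in untreated NB4, and KCNJ5, GUCY1A2, CHST2 and TGFB2 had at most 0.229 CPM in any NB4 library with ATO, against at most 0.958 CPM in untreated NB4. In HL-60 the potassium channel gene KCNJ5 stood at 35.7, 33.6 and 34.7 CPM with ATO, against 13.8, 12.6 and 14.8 CPM untreated. TGFB2, a growth factor, stood at 14.2, 13.5 and 15 CPM in HL-60 with ATO and 17.9, 15.2 and 19.3 CPM untreated. The NB4 side of these differences rests on few reads. The calls of P4HTM and GUCY1A2 were lost with halved counts (adjusted p = 0.11 and 0.0529), those of P4HTM and KCNJ5 with limma-voom (0.229 and 0.0621), and each of the 3 without some single libraries (0.0552 to 0.315 for P4HTM, 0.0501 and 0.0632 for KCNJ5, 0.0583 to 0.0771 for GUCY1A2). In all, 149 of the 384 genes called higher by 2-fold or more, and 52 of the 183 called lower, were under 1 CPM in both NB4 groups. Restricted to 9059 genes with at least 5 CPM in each line, 1844 were called, 908 higher and 936 lower.

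Some of the strongest changes were common to both lines. There were 77 genes called the same way by at least 2-fold in both lines whose line difference was not called, which does not show equality. CYTL1, a secreted factor of CD34+ cells, stood at 0.55, 0.191 and 0.602 CPM in NB4 with ATO, against 25.7, 25.8 and 24.6 CPM in untreated NB4, and at 0.839, 1.07 and 0.455 CPM in HL-60 with ATO, against 22.6, 26.9 and 22.7 CPM in untreated HL-60. It fell 56.8-fold in NB4 and 30.1-fold in HL-60 (-0.92 ± 0.374, edgeR adjusted p = 0.115, and 0.0269 to 0.046 under the 4 alternatives that called it). The choline acetyltransferase gene CHAT fell in both (0.44 ± 0.295), with HL-60 at 13.6% of the NB4 level with ATO. ADGRG3, a receptor of granulocytes, rose in both (-0.60 ± 0.6), as did the repressor gene GFI1B (-1.11 ± 0.804) and SEPTIN1 (0.28 ± 0.416). In HL-60 with ATO these 3 stood at 5.8%, 7.79% and 17% of their NB4 levels, close to the lower limit described above for the first 2.

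The same difference was then measured in the other 12 libraries. These were NB4 and HL-60 cells given 1 µM all-trans retinoic acid (ATRA), which drives granulocytic differentiation, with or without ATO. Their levels do not enter the contrast above, but all 24 libraries share 1 estimate of the spread. Doses of each drug within the combination are not labelled. There the line difference was called for 5607 genes (31.3%), of which 2744 were higher (15.3%) and 2863 lower (16%), and library sizes alone shifted its median over all genes by 0.144 and the share called higher to 68.9%, against 48.9%. Of the 2357 genes called without ATRA, 1257 were called in the same direction on ATRA and 207 in the opposite one, and 1835 had the same sign. Across all genes the line differences without and on ATRA had a Pearson r of 0.14 and a Spearman rho of 0.22, and 0.37 and 0.45 at a mean of at least 10 CPM.

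Several differentiation genes had no called line difference on ATRA, or a smaller one. NCF1 averaged 1944 CPM in NB4 with both drugs and 1250 CPM in NB4 with ATRA, against 722 CPM in HL-60 with both drugs and 582 CPM in HL-60 with ATRA, a line difference of 0.33 ± 0.154 that did not pass. For FGR it was 0.12 ± 0.117 and for CD52 0.01 ± 0.127, neither called. The difference between the line differences without and on ATRA, called for 14.4% of genes tested, passed for NCF1 (3.33, edgeR adjusted p = 2.47e-08), FGR (2.68, 1.9e-08), CD52 (2.54, 2.59e-09) and PRAM1 (2.88, 9.22e-17), for which a difference of 0.84 ± 0.0868 was still called. CXCR2 kept a difference of 1.85 ± 0.125, and ITGAM of 1.01 ± 0.113.

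The line difference of several antioxidant genes was larger on ATRA. On ATRA 1 of 29 NRF2 targets was called higher and 18 lower, with a median of -0.62 (all genes 0.03), against 4 and 11 without it. HMOX1 averaged 27.1 CPM in NB4 with both drugs and 1.6 CPM in NB4 with ATRA, against 972 CPM in HL-60 with both drugs and 8.19 CPM in HL-60 with ATRA, a line difference of -2.81 ± 0.23 (edgeR adjusted p = 5.89e-10) where none was called without ATRA. The change between the settings passed (adjusted p = 0.000995). It also passed for ME1 (-2.68 ± 0.108 on ATRA), SQSTM1 (-2.59 ± 0.11), GCLM (-1.97 ± 0.101) and TXNRD1 (-1.26 ± 0.0637), and did not for NQO1 (-1.96 ± 0.105) or FTH1 (-1.73 ± 0.0951). SLC48A1, higher in NB4 without ATRA, was lower on it (-0.62 ± 0.102). MT2A, lower in NB4 without ATRA, was higher on it (1.02 ± 0.221). Among ATF4 targets 2 were called higher and 13 lower, with ATF3 at -4.69 ± 0.255. HSPA5 (-1.32 ± 0.0695) and MYC (-0.82 ± 0.0866) were lower, and JUN (-3.29 ± 0.274) and PPARG (-2.58 ± 0.288) as well. FLT3, lower without ATRA, was not called on it (0.53 ± 0.286).

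**Figure D5:**
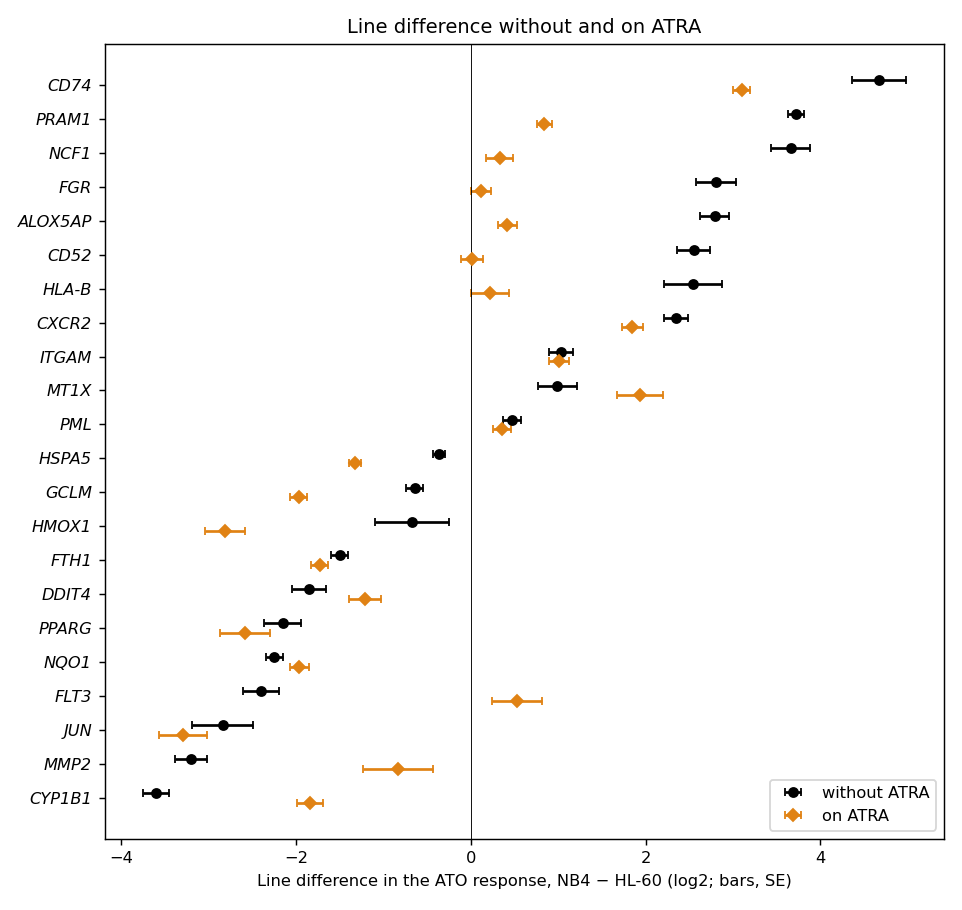
Line difference in the ATO response (log2, NB4 minus HL-60, bars show the SE) of 22 genes without ATRA (black circles) and on ATRA (orange diamonds), ordered by the value without ATRA. NCF1, FGR, CD52 and HLA-B lie near 0 on ATRA, HMOX1, GCLM and HSPA5 lie lower there, and NQO1, FTH1 and ITGAM differ little.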

How the data were processed

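Poly(A) RNA libraries were sequenced as paired 150-base reads, per the labels' protocols. Per the submitters' processing notes, the tools were fastp, HISAT2, featureCounts and DESeq2 and the build GRCh38. No version, strand setting or annotation release is stated in the labels used, so genes that overlap on opposite strands cannot be told apart. The deposited table holds raw counts per gene, not normalized by the authors. Even counts made up 74.4% of counts from 1 to 9 and 51.5% of counts of 500 or more, as when both mates of a pair are counted, and a fit on counts divided by 2 was an alternative. Of 60655 genes, 58393 were matched by ID to GENCODE v29 for positions.

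All 24 libraries entered 1 fit of 8 groups (edgeR 4.0.16, filterByExpr, TMM, robust quasi-likelihood, 16 residual degrees of freedom, R 4.3.3), with Benjamini-Hochberg adjustment over all 17930 genes tested and calls below 0.05. CPM are TMM-normalised. Batch-wise differences used log2 CPM with a prior count of 2. The labels' batch numbers equal the replicate numbers and pair the libraries by label. Residuals of libraries with the same number correlated at -0.0153 to -0.00961 in NB4, 0.00628 to 0.0257 in HL-60 and -0.0216 to 0.0225 across lines. Alternatives were DESeq2 1.42.0, limma-voom (limma 3.58.1), other scalings and filters, the replicate block and leaving out each library.

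Genes were named by rule: the 8 largest called differences per direction of protein-coding genes with at least 5 CPM in a group and the same sign in 3 batches, up to 5 per direction called oppositely in the lines, up to 6 called alike by 2-fold, and a panel, of which 1 gene is not reported here. Others were named by size or from the 54 lists after their values were seen. The members and lists were chosen with earlier results of these data known. The fit was tested on simulated data. Promoter sequences come from RefSeq (GRCh38.p14).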

Additional observations from a re-analysis of the deposited data

Results flagged for a closer look

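The line difference itself was tested for each gene below, and each passed with edgeR at an adjusted p below 0.05. Of 47 genes of the naming rule considered here, 39 passed, 24 higher and 15 lower in NB4. Values are log2 line differences (NB4 minus HL-60).

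Genes near 0 in untreated NB4 gave the largest fitted values, which depend on the prior count of the fit and are no bounds: LDLRAD4 6.89, IL12RB1 6.03, METTL7B 5.99, NEFH 5.86, DAPK1 5.66, SPEF2 5.36, ACVRL1 5.03 and RNF175 5.01. The same holds at the lower end for P4HTM (-4.81), KCNJ5 (-3.85), CHST2 (-3.43), GUCY1A2 (-3.09) and TGFB2 (-2.94), whose NB4 levels were under 1 CPM.

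Genes that moved in opposite directions, with a mean over 1 CPM in an NB4 group, were PLD4 (3.12), THBS4 (1.95), GPR160 (1.55), MMP2 (-3.20), JUN (-2.84) and PPARG (-2.15). CEP70 (3.42) and LHFPL2 (-1.98) did so with under 1 CPM on average in NB4.

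Differentiation genes with the higher response in NB4 were PRAM1 (3.72), NCF1 (3.66), FGR (2.81), ALOX5AP (2.79), CD52 (2.55), ITGAM (1.03) and CEBPE (0.44). MPO fell in both lines and less in NB4 (0.64). MPO and CEBPE stood at 17.1% and 14.4% of the NB4 level in HL-60 with ATO. CYP1B1, with little change in HL-60, was lower (-3.60).

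Stress genes with the smaller rise in NB4, or none called there, were MT2A (-0.68), GCLM (-0.64) and TXNRD1 (-0.33), and those with the larger one MT1X (0.99), SLC48A1 (0.53) and ABCC1 (0.27). HSPA5 fell in both lines and further in NB4 (-0.36). PML was higher (0.47) and MYC lower (-0.26).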

How the results depend on the processing

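Line difference calls numbered 1371 at an adjusted p below 0.01 and 567 at 2-fold or more, against 2357. NB4 calls at 2-fold or more numbered 1484, against 6831, and HL-60 calls 2601 at an adjusted p below 0.01 and 701 at 2-fold or more, against 4024. Without single libraries the line difference had 1871 to 2296 calls, NB4 5902 to 6840, HL-60 3163 to 3954 and the line difference on ATRA 5065 to 5913. Apart from the subsets of genes and the subtraction given above, other tools, scalings and filters gave 2317 (limma-voom) to 3268 (only the 12 libraries) line difference calls, with 2848 for DESeq2, and every gene with a read gave 2496. The correlation of the responses was 0.55 at 10 CPM or more. With library sizes alone 68.1% of NB4 calls were higher, against 53.5%, and 63.2% of HL-60 calls, against 54.3%. The replicate block gave 2225 calls shared by the lines and 2237 within each line, and changed no named call other than MYC, ABCC1 and MAFG. No gene of the naming rule reversed. Over both sets of genes and these alternatives, 774 values kept their side of the threshold, 15 gained a call and 14 lost one. Without single libraries 833 kept it, 3 gained and 40 lost a call. The causes were not tested. The number of libraries per group and, below about 1 CPM, the number of reads limit the precision. P-values measure spread between libraries that may be technical.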

Other observations

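Cell cycle genes of G2 and mitosis, not described above, were called higher in NB4 for 6 of 30 and lower for 1, with a median of 0.17 (all genes tested 0.02). CCNB1, the mitotic cyclin, was at 0.35, PLK1, a mitotic kinase, at 0.31 and CDC20, the anaphase activator, at 0.28, all log2 line differences. Without the untreated HL-60 library of batch 2 the calls of PLK1 (adjusted p = 0.0623) and CDC20 (0.084) were lost. The cytokinesis gene ANLN was the lower one (-0.45). With library sizes alone 9 were higher and 1 lower.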
